A study of Mus musculus with 162 samples.

Results

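Transcripts of fibroblast growth factor 21 (FGF21), of its co-receptor and receptors and of the related ligand FGF1 were followed across 9 organs of fasted mice. The members were the genes of the count table whose symbol is Fgf21, Fgf1, Klb, Fgfr1, Fgfr2, Fgfr3 or Fgfr4, and all 7 were found among its 53686 genes. RNA was sequenced from male C57BL/6J mice aged 8 to 9 weeks that had gone without food for 0, 2, 8, 12, 18 or 22 h and were killed at the same time of day. Each of the 18 mice, 3 per fasting time, gave all 9 organs. These were 4 parts of the nervous system, namely the olfactory bulb (OB), the brain (BRN, telencephalon with diencephalon), the cerebellum (CBL) and the brainstem (BST), the stomach (STM) and liver (LIV), and 3 fat depots, the interscapular brown depot (iBAT) and the perigonadal (pgWAT) and posterior-subcutaneous (psWAT) white depots.

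FGF21 is a hormone secreted mainly by the liver, and in the mouse fasting is known to raise its transcription there through the nuclear receptor PPARα. It acts on FGF receptors, chiefly FGFR1, only in cells that also carry the co-receptor β-Klotho, which Klb encodes and which adipocytes and hepatocytes make. FGF1 acts close to the cells that release it, binds every FGF receptor and needs no Klotho protein.

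Total counts per library ran from 130701 to 27801717 over all libraries, and expression was read as counts-per-million (CPM) of that total. A library was left out where its log total lay more than 2 SD under the mean of its organ. This removed BRN 8 h replicate 3 (130701 counts), BRN 18 h replicate 1 (279848), STM 12 h replicate 3 (4590060), iBAT 22 h replicate 1 (2700482) and psWAT 22 h replicate 2 (2944552). The libraries retained held 3045845 to 27801717 counts, with a median of 8735554. A count of 0 in them allows a level of up to 0.108 to 0.985 CPM, taken at 3 counts, and floors and intervals given here cover counting error only.

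Marker genes were checked in every organ. Summed over each list, hepatocyte genes were highest in LIV (median 91053 CPM), brown adipocyte genes in iBAT (7889), general adipocyte genes in pgWAT (30739) and gastric genes in STM (172560.0). In the nervous system the olfactory bulb list was highest in OB (2223), the forebrain list in BRN (2466), the cerebellar list in CBL (6504) and the brainstem list in BST (640.3).

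Some libraries stood apart from the rest of their organ. In psWAT 12 h replicate 3 the 6 cerebellar markers summed to 3984 CPM, led by Cbln3 and with 0 of the 6 at 0, while the other psWAT libraries reached at most 33.9 CPM. The 6 adipocyte markers of psWAT, led by Fabp4, summed to 438 to 26964 CPM, its 6 lymphocyte markers to 116.2 to 2772 CPM and its 6 skeletal muscle markers to 16.2 to 30945 CPM, so psWAT libraries differed widely in tissue content. In pgWAT the 7 markers of epididymis and testis summed to 22058 CPM in 22 h replicate 2, 4704 CPM in 18 h replicate 3, 2902 CPM in 2 h replicate 2 and 539 CPM in 22 h replicate 3, and to at most 34.8 CPM elsewhere. Crisp1, an epididymal gene, made up 21799 CPM of the highest of these sums. The iBAT libraries at 22 h had adipocyte sums of 23306 and 20968 CPM, against 8707 to 15008 CPM at earlier times. In BRN 8 h replicate 3, one of the libraries left out, 10 pancreatic acinar markers summed to 15118 CPM. In bulk tissue, fewer cells of a type and less RNA per cell cannot be told apart.

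The filter on low counts kept 46 of the 63 pairs of member and organ. Fgf1, Fgfr1, Fgfr2 and Fgfr3 were kept in all 9 organs, Klb in 5 (STM, LIV, iBAT, pgWAT and psWAT), Fgfr4 in 4 (OB, STM, LIV and pgWAT) and Fgf21 only in LIV. Klb in STM was kept through 3 libraries, all at 0 or 2 h, and Fgf21 in LIV through 3, all at 18 or 22 h, so for these pairs the filter itself favoured a difference between late and early. Members kept in an organ where they are high at some times had a better chance to differ, so the counts that follow describe the kept pairs and not the members at large.

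Fasting time was first tested jointly, across all 6 times of an organ, with edgeR quasi-likelihood F tests and Benjamini-Hochberg (BH) adjustment over all genes of the organ. The test called 2 of 7 kept members in LIV, where it called 16% of all genes, and 4 of 5 in iBAT, where it called 29%. In the other 7 organs edgeR called 0 members, beside 15.3% of all genes in OB, 0.00597% in BRN, 2.99% in CBL, 0.107% in BST, 6.55% in STM, 0% in pgWAT and 0% in psWAT. At an unadjusted p under 0.05 there were 1 member in OB, 0 in BRN, 3 in CBL, 1 in BST, 3 in STM, 0 in pgWAT and 3 in psWAT. DESeq2 called 1 member in OB, 1 in CBL, 3 in STM and 3 in psWAT, and 0 in BRN, BST and pgWAT. Of all genes, 5423 of 16742 in OB, 2780 of 16749 in BRN and 3801 of 15976 in CBL had an unadjusted p under 0.05. So did 1869 of 16784 in BST and 3859 of 16281 in STM. In pgWAT 1694 of 16412 and in psWAT 3192 of 16721 did, and DESeq2 called 550 and 2053 there. Its joint calls elsewhere were 2805 of 16281 genes (STM), 3774 of 16742 (OB) and 1772 of 15976 (CBL). Where DESeq2 called 0 members, it still called 219 of 16784 genes (BST) and 1577 of 16749 (BRN). Over all organs edgeR called 6 of the 46 pairs, and 20 had an unadjusted p under 0.05. Of these 20, 4 were in LIV and 5 in iBAT, beside 4941 of 14023 and 6044 of 14529 of all genes. With no filter edgeR called 13, but calls over all genes were more numerous too, at 2015 in place of 1 in BRN, 2397 in place of 477 in CBL, 4388 in place of 2568 in OB and 4055 in place of 2244 in LIV. The cause of this difference was not tested, and values with no filter are given as a description of that setting.

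Late fasting (18 and 22 h) was then set against early fasting (0 and 2 h), with a call needing an adjusted p under 0.05 and an absolute log2 fold change over 1. Of the kept members, 2 of 6 were called in STM, where 7.39% of all genes were. Elsewhere edgeR called 0 members, beside 0.197% of all genes in OB, 1.97% in BRN, 0.131% in CBL, 0% in BST, 1.38% in LIV, 12.7% in iBAT, 0.00609% in pgWAT and 0% in psWAT. The members with an unadjusted p under 0.05 numbered 3 in LIV, 3 in iBAT, 2 in CBL, 2 in pgWAT and 1 each in OB, BRN, BST and psWAT, and DESeq2 called 1 in LIV and 0 in the others. Of all genes, 4191 of 14023 in LIV, 6760 of 14529 in iBAT and 3059 of 15976 in CBL had an unadjusted p under 0.05. The same held for 3316 of 16412 in pgWAT, 4207 of 16742 in OB and 4597 of 16749 in BRN. In BST it held for 1945 of 16784 and in psWAT for 1143 of 16721. DESeq2 called 246 of all genes in LIV, 1948 in iBAT, 11 in CBL and 266 in pgWAT. It called 20 in OB, 626 in BRN, 1 in BST and 18 in psWAT. Without the fold threshold, 8 of the 46 pairs passed, 3 in STM, 2 in LIV and 3 in iBAT. Of all genes 3696 of 16281 in STM, 2098 of 14023 in LIV and 5231 of 14529 in iBAT then passed too. Each time against 0 h gave 5 calls among 230, namely 2 members in STM at 18 h (8.72% of all genes) and 3 in iBAT at 22 h (29.7% of all genes). The comparisons with 0 h share their control libraries.

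Fgf21, the hormone gene, had the fewest counts of the members. Over all libraries it had 293, was above 0 in 61 of the retained ones and above 3 counts in 25, and no library held more than 23. Mean levels were 0.810 ± 0.752 CPM in LIV (SD, n = 18), 0.322 ± 0.629 in iBAT (n = 17), 0.293 ± 0.346 in pgWAT (n = 18) and 0.105 ± 0.187 in psWAT (n = 17), and from 0.0543 in CBL down to 0.00652 in OB in the other organs. As an alternative added after seeing the data, means were taken without single libraries. Without 0 h replicate 3 the iBAT mean was 0.192 CPM, under that of pgWAT, and without 0 h replicate 2 the psWAT mean was 0.0682 CPM. No neighbours in this order differed in the paired permutation test over mice. LIV exceeded iBAT in 12 of 17 mice by 0.66 on the log2 scale (SD 1.12), at an adjusted p = 0.0571 after BH adjustment over 56 pairs.

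In LIV, Fgf21 counts were low at every fasting time and highest in a few late libraries. At 0 h its level was 0.371, 0.242 and 0.681 CPM, with exact Clopper-Pearson 95% intervals of 0.0766 to 1.09, 0.0294 to 0.876 and 0.221 to 1.59. After 18 h it was 0.111 (0.00282 to 0.620), 2.73 (1.64 to 4.26) and 2.28 CPM (1.44 to 3.42), and after 22 h 1.70 (0.973 to 2.76), 1.06 (0.483 to 2.01) and 0.779 (0.313 to 1.61). The libraries in between held 0.952, 0.161 and 0 CPM at 2 h, 0.704, 0.458 and 0.948 at 8 h, and 0.119, 0.401 and 0.891 at 12 h. Replicates 2 and 3 at 18 h and every 22 h library lay above all 0 h libraries, while replicate 1 at 18 h lay below them. Late and early libraries thus overlapped. The share of all LIV genes without overlap at 22 h against 0 h was not counted. At 18 h against 0 h it was 28.2%. Late against early, the log2 fold change was 1.77 (SE 0.64, means 1.44 and 0.401 CPM) with an edgeR BH-adjusted p = 0.0690, and the joint test gave an adjusted p = 0.259. Fgf21 entered this test only through 18 h replicates 2 and 3 and 22 h replicate 1, the libraries over the filter's level of 1.16 CPM. Without any 1 of these it was no longer kept, so the filtered test says little about a difference. It passed with DESeq2 (1.78, adjusted p = 0.0447) and, among single libraries left out, without 18 h replicate 1 (2.04, adjusted p = 0.0164) and 2 h replicate 1 (2.65, adjusted p = 0.0167). These were the lowest late and the highest early library, and nothing is drawn from those passes. With no filter, where its entry did not depend on late libraries, the late value was 1.76 (adjusted p = 0.0113), and with lane as a covariate it was 0.98 (adjusted p = 0.787).

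Fgf21 in iBAT showed its highest levels in the fed mice. The level was 1.05, 0.594 and 2.40 CPM at 0 h, on 17, 9 and 23 counts, and 0 in all 3 libraries at 2 h. Later libraries held 0.112, 0.0619 and 0 CPM at 8 h, 0, 0.0941 and 0.871 at 12 h, 0.288, 0 and 0 at 18 h, and 0 and 0 at 22 h. The 0 h libraries thus lay above nearly all later ones, and only 12 h replicate 3 reached into their range. Against the floor of the shallowest library at 2 h (0.430 CPM), the 0 h mean of 1.35 CPM made Fgf21 at least 3.14-fold lower at 2 h, and at least 1.91-fold lower without 0 h replicate 3. At 22 h it was at least 1.42-fold lower, and without that replicate the 0 h mean lay under the floor. The gene was not kept by the filter here, and with no filter the joint test gave an edgeR BH-adjusted p = 0.000553 and the 22 h comparison 0.0182. The 18 h comparison had an adjusted p = 0.263, and the late comparison gave no call (adjusted p = 1.00), with an error too large to read since all libraries at 2 h and 22 h held 0 counts.

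In pgWAT the Fgf21 level was 0.192, 0.484 and 1.19 CPM at 0 h, and 18 h replicate 3 held 1.06 CPM, with the remaining libraries between 0 and 0.502 CPM. The psWAT libraries had 0 to 0.689 CPM. The filter did not keep the gene in either depot. It had 56 counts in 13 libraries of pgWAT and 13 counts in 6 libraries of psWAT. With no filter the edgeR joint test gave BH-adjusted p = 0.860 and 0.519, and the late comparison gave no call (log2 fold change -1.03, adjusted p = 0.733 in pgWAT, and -0.25, adjusted p = 1.00 in psWAT).

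Fgf21 lies on the minus strand at chr7:45613886-45615490 (GRCm38), with 3 exon blocks of 951 bases in all. Its promoter is shown because factors known to bind such elements are among the regulators and target lists tested here. The 250 bases before its start, chr7:45615491-45615740 on the minus strand, read 5′ to 3′ from RefSeq (GRCm38.p6), with capitals marking motif matches on either strand:
Fgf21 promoter: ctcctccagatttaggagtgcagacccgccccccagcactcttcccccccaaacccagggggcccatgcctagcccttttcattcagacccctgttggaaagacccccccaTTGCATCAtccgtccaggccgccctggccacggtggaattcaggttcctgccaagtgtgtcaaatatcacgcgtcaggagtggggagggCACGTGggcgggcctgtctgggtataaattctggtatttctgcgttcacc
The element TGATGNAA, bound by ATF4 with C/EBP proteins, matched on the opposite strand at positions -139 to -132 from the start, and 3.45% of 32851 promoters of this length held it on either strand. The E-box CACGTG, which reads the same on both strands, matched at -50 to -45 and was in 6.02% of promoters. The nuclear receptor element AGGTCA was not among these letters and was in 14.0% of promoters. The matches do not overlap.

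Fgf1, the paracrine ligand, was above 0 in every library retained and highest in the brainstem and cerebellum. It averaged 345 ± 20.01 CPM in BST, 182 ± 15.2 in CBL and 115.8 ± 14.3 in LIV (SD, n = 18 each), then 98.6 in OB, 93.0 in pgWAT and 83.8 in BRN, and far lower in psWAT (18.4), iBAT (14.6) and STM (10.3). BST exceeded CBL in 18 of 18 mice by 0.93 (log2, SD 0.14), and CBL exceeded LIV in 18 of 18 by 0.65, each at a permutation p adjusted by BH of 0.000168. OB and pgWAT, pgWAT and BRN, and psWAT and iBAT did not differ beyond their spread. In psWAT 12 h replicate 3, the library with cerebellar markers, Fgf1 stood at 123.1 CPM against 2.73 to 24.6 in the others, and without it the psWAT mean was 11.9 CPM, under that of iBAT.

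In iBAT Fgf1 fell during the fast. Its level was 15.3, 16.8 and 21.5 CPM at 0 h, 17.6, 19.3 and 15.5 at 2 h, 14.7, 10.3 and 9.84 at 18 h, and 9.51 and 8.26 at 22 h. All 5 late libraries (8.26 to 14.7 CPM) lay below all 6 early ones, the only pair of member and organ without overlap in that comparison. Of all tested iBAT genes 3.49% had late and early libraries that did not overlap, and 12.7% were called. The log2 fold change was -0.85 (SE 0.19) late against early and -1.14 (SE 0.29) at 22 h against 0 h, with edgeR BH-adjusted p = 0.00341 and 0.00587, of which only the second passed the fold threshold. The joint test had an adjusted p = 0.0176, which became 0.0631 without iBAT 22 h replicate 2 and, as choices made after seeing the data, 0.0618 without mice 8 and 9 and 0.329 without the 22 h libraries. No other organ gave an edgeR or DESeq2 call for Fgf1.

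Klb, which encodes β-Klotho and so sets where FGF21 can act, was concentrated in adipose tissue and liver. It averaged 29.6 ± 6.65 CPM in iBAT (SD, n = 17), 27.4 ± 22.01 in pgWAT (n = 18), 8.22 ± 2.35 in LIV (n = 18) and 5.77 ± 7.13 in psWAT (n = 17). STM (0.593 CPM), BST (0.380), BRN (0.161), CBL (0.132) and OB (0.129) were near the floor of single libraries. iBAT and pgWAT did not differ (log2 0.47, SD 0.99, permutation p adjusted by BH 0.132), while pgWAT exceeded LIV in 16 of 18 mice by 1.35 (SD 1.41, adjusted p 0.00428) and LIV exceeded psWAT in 13 of 17 by 1.24 (adjusted p 0.0190). The neighbours STM and BST, BRN and CBL, and CBL and OB did not differ either.

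**Figure D1:**
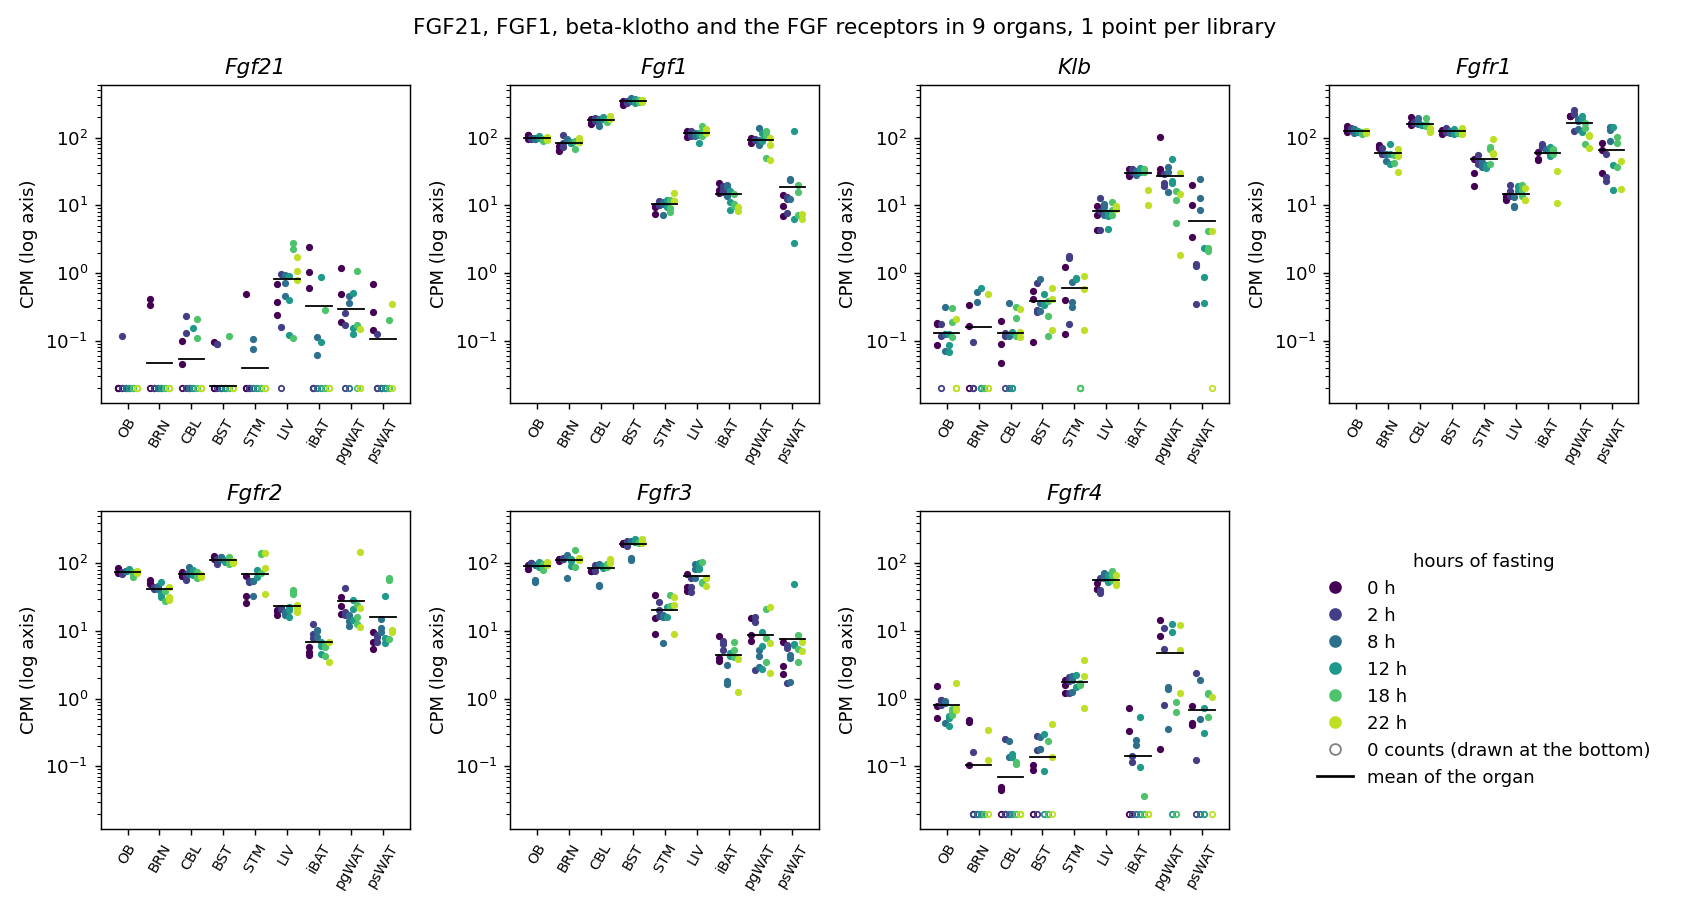
Levels of the 7 members in each retained library by organ, in CPM on a log axis, coloured by hours of fasting. Lines mark organ means, and open points at the bottom are libraries with 0 counts. Klb was highest in iBAT (mean 29.6 CPM) and pgWAT (27.4 CPM), and Fgfr4 in LIV (57.3 CPM).

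In brown fat Klb fell at 22 h. The 0 h libraries held 26.7, 28.9 and 33.9 CPM, and the 12 libraries from 2 to 18 h lay between 27.9 and 35.1. At 22 h the level was 10.1 and 16.7 CPM, below every earlier library, and the shallow library left out had 23.7. In 30.8% of all iBAT genes the 22 h libraries lay outside the earlier range on 1 side. Against 0 h the log2 fold change at 22 h was -1.24 (SE 0.22, edgeR BH-adjusted p = 0.000673), and the joint test gave an adjusted p = 0.00435. Without iBAT 22 h replicate 2 the 22 h value was -0.97 (adjusted p = 0.0166), under the fold threshold, as was the -0.95 obtained with every library kept. The joint call was lost without that replicate (adjusted p = 0.0961) and, as an alternative added after seeing the data, without the 22 h libraries (0.983).

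STM carried little Klb, and 18 h was the only time at which no read was seen. Its level was 0.396, 1.22 and 0.124 CPM at 0 h, 1.77, 1.67 and 0.175 at 2 h, 0.574, 0.916 and 0.146 at 22 h, and 0 in all 3 libraries at 18 h. Taken at the floor of the shallowest 18 h library (0.413 CPM), Klb was at least 2.92-fold lower than the 2 h mean and 1.40-fold lower than the 0 h mean. The bound against 2 h was 2.23 without 2 h replicate 1 and 2.36 without replicate 2. Replicate 3 at 2 h and replicates 1 and 3 at 0 h themselves lay under that floor. Without 0 h replicate 2 the 0 h mean lay under it too. Late against early the log2 fold change was -3.27 (SE 0.97, edgeR BH-adjusted p = 0.0257, means 0.273 and 0.892 CPM), and 18 h against 0 h had an adjusted p = 0.0414. At 22 h against 0 h the value was -0.10 (adjusted p = 0.962), so the late difference came from the 18 h libraries at 0 counts, for which a fitted fold change depends on the prior count. Klb entered these tests only through 0 h replicate 2 and 2 h replicates 1 and 2, the libraries over the filter's level of 1.14 CPM and all of them early, so the filtered comparison was drawn from the difference that admitted the gene. With no filter the late value was -3.28 (adjusted p = 0.0224) and the 18 h comparison had an adjusted p = 0.0351. Single STM libraries were left out as an alternative added after seeing the data. Without 0 h replicate 2 or 2 h replicates 1 or 2 Klb no longer passed the filter, and the late call was lost without 18 h replicates 1 (adjusted p = 0.0521) and 3 (0.0589) and with 0 h as the only early time (0.0932). The 18 h call was lost too without 0 h replicates 1 (0.0637) and 3 (0.0554), 8 h replicate 3 (0.0516), 12 h replicates 1 (0.0511) and 2 (0.0503) and 18 h replicates 1 (0.108), 2 (0.0611) and 3 (0.1199), without mice 8 and 9 (0.0609), with library totals alone (0.0528) and with every library kept (0.0625). With lane as a covariate no call was left (late -2.69, adjusted p = 0.906). The 10 pancreatic acinar markers in STM, led by Cela1 in most libraries, summed to 119.3 to 596 CPM at 0 and 2 h and to 22.2 to 70.2 CPM at 18 and 22 h, and their part in the stomach results was not tested.

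White fat held libraries with very little Klb. The pgWAT level was 34.8, 30.5 and 103.04 CPM at 0 h and 21.2, 19.6 and 29.3 at 2 h. It was 16.1, 12.1 and 5.44 CPM at 18 h, where adipocyte markers summed to 35263, 32253 and 27576 CPM. At 22 h it was 30.2, 1.82 and 14.9 CPM. The lowest of these was 22 h replicate 2, where adipocyte markers summed to 4074 CPM against 22028 to 42935 in the other pgWAT libraries. The 18 h libraries lay below those at 0 and 2 h, and the share of all pgWAT genes set apart in this way was not counted. Late against early the pgWAT log2 fold change was -1.30 (SE 0.53, edgeR BH-adjusted p = 0.198). In psWAT the level was 19.9, 10.2 and 3.42 CPM at 0 h, 1.27, 0.344 and 1.37 at 2 h, and 12.7, 8.39 and 24.1 at 8 h. It was then 0.858, 0.364 and 2.36 at 12 h, 2.13, 2.35 and 4.10 at 18 h, and 0 and 4.15 at 22 h. The 3 libraries at 8 h had adipocyte sums of 26964, 9224 and 19416 CPM, those at 2 h 1831, 674 and 941 CPM, and the part of adipocyte content in these levels was not tested. DESeq2 called psWAT Klb in the joint test (adjusted p = 0.00163) and at 2 h (log2 fold change -3.83, adjusted p = 0.0255), which edgeR did not, and without replicate 3 the edgeR joint test gave 0.0239.

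**Figure D2:**
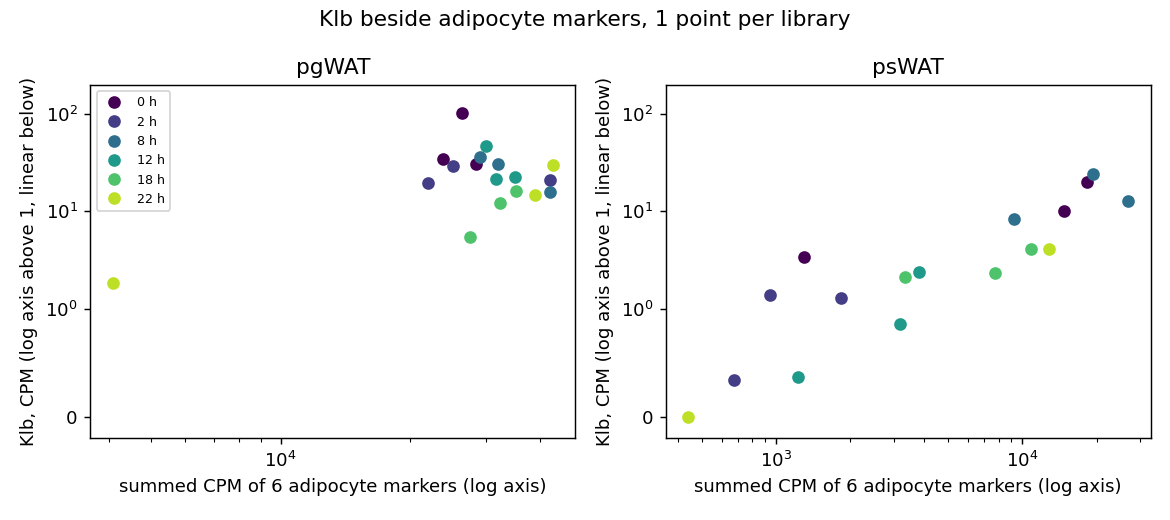
Klb (CPM) against the summed CPM of 6 adipocyte markers in the retained pgWAT and psWAT libraries, 1 point per library, on log axes that turn linear for Klb under 1 CPM. The psWAT libraries with the highest Klb (24.1 and 19.9 CPM) had marker sums of 19416 and 18218 CPM.

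LIV had 4.34 to 13.0 CPM of Klb, and no comparison over fasting time called it. Across the 18 mice, Fgf21 in LIV was set against Klb in LIV, iBAT, pgWAT and psWAT and against Fgf21 in the 3 adipose tissues of the same mice, 7 relations in all. The strongest was Klb in LIV, with a Pearson r of 0.401 (permutation p = 0.0994, BH-adjusted 0.492) and a Spearman rho of 0.562 (p = 0.0167, adjusted 0.117). Within fasting times r was 0.266, within the sequencing lanes 0.387 (n = 8, description) and 0.433 (n = 10), and without the 2 mice farthest from the median 0.291 (n = 16). No relation passed, so a link between hormone and co-receptor transcripts was not detectable over these mice.

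The receptor genes divided the organs among them. On a scale per exon length (CPM divided by the exon length in kb), Fgfr1 made up 81.7% of the summed level of the 4 receptors in iBAT, 75.8% in pgWAT and 70.7% in psWAT. In LIV it was 5.16%, beside 55.7% for Fgfr4, 31.4% for Fgfr3 and 7.70% for Fgfr2. Fgfr3 led in BRN (60.9%) and BST (54.1%), Fgfr1 in CBL (46.3%) and Fgfr2 in STM (44.9%), while OB was divided between Fgfr1 (38.7%) and Fgfr3 (38.4%). The summed level on this scale was highest in BST (50.8) and lowest in iBAT (7.27).

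Fgfr1, the receptor that pairs with β-Klotho in adipocytes, was highest in pgWAT (161.8 ± 53.3 CPM, SD, n = 18) and CBL (160.9 ± 21.1), which did not differ, followed by OB (125.3) and BST (123.2). CBL exceeded OB in 18 of 18 mice by 0.35 (log2, permutation p adjusted by BH 0.000168). LIV was lowest at 14.8 ± 3.37 CPM, and STM exceeded it in 17 of 17 mice by 1.64 (SD 0.57, adjusted p 0.000168). The levels in psWAT (66.7), BRN (58.7), iBAT (58.7) and STM (48.7) did not differ between neighbours.

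In iBAT Fgfr1, like Klb, fell at 22 h. Its level was 46.8, 61.5 and 48.2 CPM at 0 h and 10.8 and 31.7 at 22 h, and the 12 libraries from 2 to 18 h held 53.8 to 79.6. Both 22 h libraries lay below every earlier one, and in 30.8% of all iBAT genes they lay outside the earlier range on 1 side. The library left out at 22 h had 30.7 CPM. The log2 fold change at 22 h was -1.39 (SE 0.30, edgeR BH-adjusted p = 0.00215), and -0.87 without iBAT 22 h replicate 2, with an adjusted p = 0.0306 but under the fold threshold. It was -2.39 without 22 h replicate 3, and late against early Fgfr1 then passed (-1.32, adjusted p = 0.000227). The joint test (adjusted p = 0.00771) became 0.0734 without 22 h replicate 2 and 0.625 without the 22 h libraries.

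**Figure D3:**
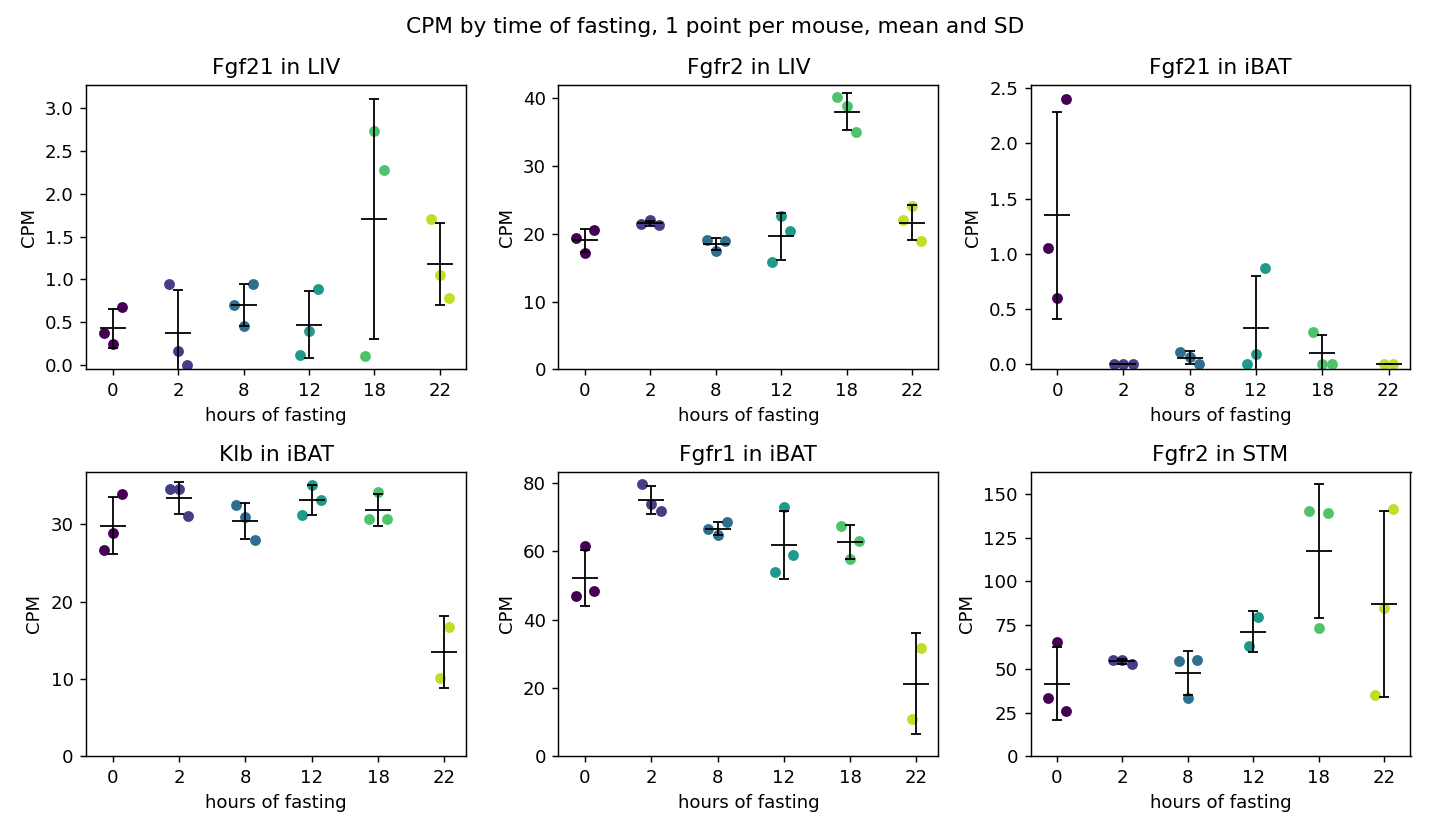
Levels (CPM) against fasting time (h) for Fgf21 and Fgfr2 in LIV, Fgf21, Klb and Fgfr1 in iBAT and Fgfr2 in STM, with points for retained libraries, a horizontal line for the mean and bars for the SD. In iBAT at 22 h Klb (10.1 and 16.7 CPM) and Fgfr1 (10.8 and 31.7 CPM) lay below all earlier libraries.

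The 22 h libraries of iBAT differed in more than these genes. Their log2 fold changes against 0 h fell with exon length across 14243 genes (Spearman -0.518, a description across genes, which are not independent replicates). Late against early the fold changes also fell with exon length in OB (-0.386), BRN (-0.364) and pgWAT (-0.294), and its part in the values there was not tested. Without the 22 h libraries, an alternative added after seeing the data, 65 of all iBAT genes passed the joint test in place of 4212, and 2 in place of 1842 were called late. The 22 h libraries came from lanes 1 and 3, no lane covariate could be fitted in iBAT, and the brown adipocyte markers there summed to 17470.0 and 11958 CPM, against 4840.4 to 12171 CPM earlier. The part of exon length, tissue content and lane in the falls of Fgf1, Klb and Fgfr1 was not tested.

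Fgfr1 in LIV passed the joint test (edgeR BH-adjusted p = 0.0364) with no lasting direction. The level was 12.5, 12.0 and 13.5 CPM at 0 h, 13.8, 20.1 and 16.3 at 2 h, 13.4, 9.72 and 9.57 at 8 h, and 18.9, 18.9 and 16.2 at 12 h. It was 19.7, 13.5 and 16.6 CPM at 18 h and 17.9, 11.9 and 11.8 at 22 h. The 12 h libraries lay above the 0 h and 8 h ones, and the late libraries overlapped with both. The share of all LIV genes set apart at 12 h in this way was not counted. At 18 h against 0 h, 28.2% of LIV genes had no overlap. Fgfr1 passed at no single time against 0 h. The call was lost with lane as a covariate (adjusted p = 0.0854), with library totals alone (0.0617) and when single libraries were left out, at 0 h replicates 1 (0.0630) and 2 (0.0635), 2 h replicates 2 (0.0633) and 3 (0.0605), 8 h replicates 2 (0.109) and 3 (0.0866), 12 h replicates 1 (0.0529), 2 (0.0682) and 3 (0.0694), and 22 h replicate 2 (0.0534).

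In the other organs no edgeR test of Fgfr1 was called, though other settings gave calls. DESeq2 called it in the joint test in CBL (adjusted p = 0.00629) and STM (0.0146), and edgeR with no filter did so in CBL (8.1e-05) and STM (0.0306). In STM the level was 29.7, 48.9 and 19.6 CPM at 0 h, between 40.5 and 71.9 at 18 h, and 56.6, 58.8 and 95.3 at 22 h. The late against early log2 fold change of 0.65 (SE 0.17, edgeR BH-adjusted p = 0.0151) was under the fold threshold. In pgWAT it was 210.2, 210.0 and 211 CPM at 0 h against 110.9, 69.2 and 105.5 at 22 h, and these groups did not overlap, as in 26.4% of all pgWAT genes, but the late comparison had a log2 fold change of -0.76 and an adjusted p = 0.119. In CBL the joint test had an adjusted p = 0.0517, with 153.2, 164.2 and 199 CPM at 0 h and 131.3, 120.6 and 138.4 at 22 h.

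Fgfr2, an epithelial receptor for the FGF7 group of ligands in one of its splice forms, was highest in BST (111.5 ± 10.8 CPM, SD, n = 18), which exceeded OB (75.1) in 18 of 18 mice by 0.56 (log2, permutation p adjusted by BH 0.000168). OB, STM (69.8 ± 37.3, n = 17) and CBL (69.5) did not differ between neighbours. BRN (41.6), pgWAT (27.4), LIV (23.1), psWAT (16.1) and iBAT (6.91) followed, and of these pgWAT and LIV did not differ. In the annotation used for exon lengths Fgfr2 shares 314 exonic bases on the same strand with Ctbp2, which had 43444 counts over all libraries against 77261 for Fgfr2, so the Fgfr2 counts and its share per exon length are uncertain to the extent of reads there.

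In LIV Fgfr2 stood out at 18 h. The level was 19.4, 17.2 and 20.6 CPM at 0 h and 40.3, 38.8 and 35.04 at 18 h, and 22.02, 24.1 and 18.9 at 22 h. The 18 h libraries lay above all others, which held 15.8 to 24.1 CPM, and 1.44% of all LIV genes were set apart at 18 h in this way in either direction. The joint test called it (edgeR BH-adjusted p = 0.00178), and at 18 h the log2 fold change was 0.87 (SE 0.15, adjusted p = 0.00170), under the fold threshold. With lane as a covariate the joint p was 0.0217, and only leaving out replicate 2 in all groups took the call away (0.192).

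In STM Fgfr2 rose late in the fast. The level was 33.03, 65.4 and 26.02 CPM at 0 h, 54.8, 55.2 and 52.5 at 2 h, 140.3, 73.2 and 139.05 at 18 h, and 35.03, 84.9 and 141.4 at 22 h. All 18 h libraries lay above the early ones, and 22 h replicate 1 lay among the early ones. The share of all STM genes set apart at 18 h in this way was not counted. Between all late and all early libraries, 6.93% of STM genes had no overlap. Late against early the log2 fold change was 1.01 (SE 0.24, edgeR BH-adjusted p = 0.00865, means 102.3 and 47.8 CPM), and at 18 h against 0 h it was 1.34 (SE 0.35, adjusted p = 0.0195). Single libraries left out, an alternative added after seeing the data, brought the late value under the fold threshold for 0 h replicates 1 (0.96) and 3 (0.92), 2 h replicate 3 (1.00), 18 h replicates 1 (0.93) and 3 (0.95) and 22 h replicate 3 (0.80), at adjusted p from 0.0234 to 0.0271. Fitted with the replicate number as a block it was 0.98 (adjusted p = 0.0161), and with no filter 1.00 (adjusted p = 0.0174). The 18 h call was lost without 0 h replicates 1 (adjusted p = 0.0692) and 3 (0.0963) and 18 h replicates 1 (0.0799) and 3 (0.0762). Without 0 h replicate 2, Fgfr2 passed at 22 h against 0 h (1.30, adjusted p = 0.0430), and the joint test called it without that library (0.0302), 18 h replicate 2 (0.0381) or 22 h replicates 1 (0.0152) or 3 (0.0484). In STM the 0 and 2 h libraries were sequenced in lane 5 and the 18 and 22 h libraries in lane 6, and with lane as a covariate the late log2 fold change was 0.78 (SE 0.59, adjusted p = 0.933). Only the 8 h libraries were divided between these lanes, so this fit separates lane from fasting through 3 libraries. Markers of other tissues moved as well. The 6 neuron markers, led by Snap25 or Stmn2, summed to 20.9 to 46.8 CPM in the STM libraries at 0 and 2 h and to 54.6 to 90.3 CPM at 18 and 22 h, with 1 of them at 0 in 22 h replicate 3. The 6 skeletal muscle markers, led by Acta1, summed to 234.7 to 1676 CPM early, with 1 at 0 in 0 h replicate 3, and to 2245 to 4507 CPM late. Their part in the STM levels of Fgfr2, Fgfr1 and Klb was not tested.

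Fgfr2 in iBAT passed the joint test narrowly (edgeR BH-adjusted p = 0.0434). The level was 5.85, 4.95 and 4.39 CPM at 0 h, 8.94, 7.78 and 12.9 at 2 h, 10.3, 10.2 and 8.12 at 8 h, and 3.49 and 6.79 at 22 h. The 2 h and 8 h libraries lay above those at 0 h and 22 h. The share of all iBAT genes set apart in this way was not counted, so nothing is drawn from this separation. The call was lost with no filter (0.0622), with every library kept (0.218), with the replicate number as a block (0.0533) and, as alternatives added after seeing the data, without mice 8 and 9 (0.146) and without the 22 h libraries (0.230). It was also lost in 15 of 20 fits that left libraries out (adjusted p from 0.0182 to 0.217). Left out singly, 0 h replicates 2 and 3, each library at 2, 8 and 18 h and 22 h replicate 2 took it away, at 0.0509 to 0.108. In white fat the highest pgWAT libraries held 145.1 CPM at 22 h replicate 2, the library with the most epididymal RNA, and 43.95 CPM at 2 h replicate 2, where these markers summed to 2902 CPM. The other libraries with epididymal markers, 18 h replicate 3 and 22 h replicate 3, held 24.2 and 22.1 CPM, less than 0 h replicate 1 (31.9) and 12 h replicate 2 (29.02), where the markers summed to at most 34.8 CPM. The highest psWAT libraries held 56.01 and 61.1 CPM at 18 h replicates 2 and 3 and 32.5 CPM at 12 h replicate 3, the library with cerebellar markers.

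Fgfr3, a receptor of neural and glial cells and of hepatocytes, was highest in BST (196.4 ± 31.6 CPM, SD, n = 18), and BST exceeded BRN (111.6 ± 20.5) in 16 of 16 mice by 0.86 (log2, SD 0.22, permutation p adjusted by BH 0.000168). BRN exceeded OB (90.2) in 15 of 16 mice (adjusted p 0.000991), OB and CBL (86.7) did not differ, and LIV averaged 65.3 ± 21.7 CPM. STM had 20.4 CPM, and pgWAT (8.78), psWAT (7.55) and iBAT (4.45) did not differ between neighbours. The psWAT mean was 4.89 CPM without 12 h replicate 3, which held 50.1 CPM against at most 8.77 in the others.

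A pair of mice had low Fgfr3 in several organs. Mice 8 and 9, replicates 2 and 3 at 8 h, had 53.0 and 57.1 CPM in OB, 48.5 and 46.5 in CBL and 119.3 and 112.3 in BST, where the next lowest mice had 80.2, 75.8 and 182.6 CPM. In BRN mouse 8 had 60.9 CPM against a next lowest of 87.6, and the library of mouse 9 was left out. Mouse 7, the remaining mouse at 8 h, had 93.0, 96.5 and 215 CPM in OB, CBL and BST, so the low values were not common to the fasting time. Of 15257 genes kept in OB, CBL and BST, 12 had the same pair of lowest mice in all 3 organs, and Fgfr3 was the only 1 of them with mice 8 and 9, which is a description after the values were seen. Astrocyte markers in these mice summed to 2531 and 2248 CPM in OB, where the libraries ran from 2228 to 2708 CPM, so mouse 9 was near the lowest. Their sums in CBL and BST are not given here, and the part of astrocyte content in the low Fgfr3 was not tested. Low values were not limited to the nervous system. In STM mouse 8 was lowest (6.57 CPM, median 20.2) and mouse 9 had 16.2, in iBAT mice 8 and 9 had 1.67 and 1.84 CPM, above only mouse 17 (1.27, median 4.33), and in psWAT mouse 9 was lowest but for mouse 4 (1.77 and 1.70 CPM) and mouse 8 had 3.96 (median 5.43). In pgWAT they had 2.92 and 4.29 CPM (median 6.89), and neither was lowest. In LIV mouse 8 had 97.1 and mouse 9 had 60.1 CPM, within the range of that organ.

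**Figure D4:**
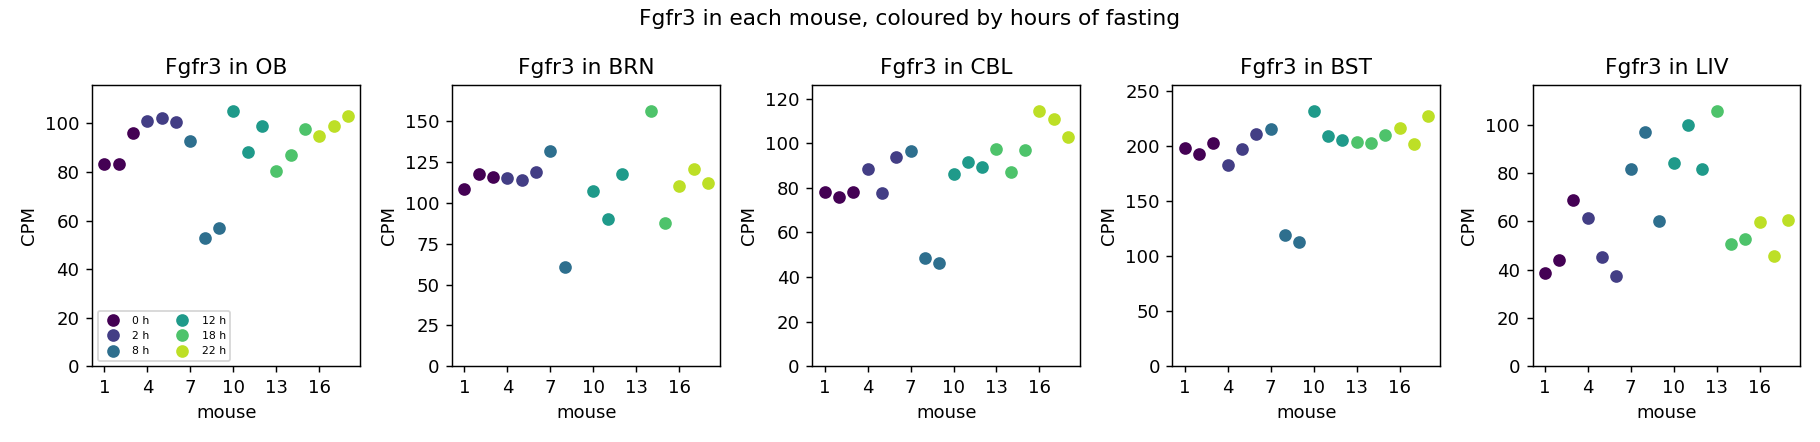
Fgfr3 (CPM) in OB, BRN, CBL, BST and LIV by mouse, with mice numbered in order of fasting time and 1 point per retained library. Mice 8 and 9 were lowest in OB (53.0 and 57.1 CPM), CBL (48.5 and 46.5) and BST (119.3 and 112.3), and not in LIV.

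Fasting time gave no call for Fgfr3 in the main edgeR tests, on filtered genes with the retained libraries and no covariate. With no filter the edgeR joint test called it in OB (adjusted p = 2.9e-08), LIV (2.8e-08) and iBAT (0.0316), and DESeq2 called it in OB (0.00675), LIV (0.0157), iBAT (0.0119) and psWAT (0.0404). The filtered edgeR joint adjusted p was 0.0594 in OB (0.0480 with lane as a covariate), 0.118 in LIV and 0.0522 in iBAT, and in CBL it became 0.0102 without mice 8 and 9, an alternative added after seeing the data. In CBL the level was 78.3, 75.8 and 78.1 CPM at 0 h and 114.6, 111.1 and 102.9 at 22 h, each of the later values above each of the earlier, and 26.9% of all CBL genes had no overlap between these groups. In iBAT the joint test passed without 0 h replicates 1 (0.0477), 2 (0.0452) or 3 (0.0387), 8 h replicate 1 (0.0450) or 22 h replicate 3 (0.0198). At 22 h iBAT passed without 0 h replicate 3 (-1.29, adjusted p = 0.0481) or 22 h replicate 3 (-2.18, adjusted p = 0.0205), and late against early without the latter (-1.19, adjusted p = 0.0234). In LIV the joint test passed without 18 h replicate 1 (0.0166), and 12 h against 0 h without 0 h replicate 3 (1.06, adjusted p = 0.0278). With replicate 1 left out at all times, which leaves mice 8 and 9 as the 8 h group, the joint test called Fgfr3 in OB (0.00195), CBL (0.000860) and BST (5.7e-06). Fgfr3 shares 998 exonic bases with an antisense gene, G630022F23Rik, which had 593 counts against 101028 for Fgfr3, and Fgfr1 shares fewer with the antisense gene Gm16159, which had 44 counts against 145840.

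Fgfr4, the receptor that binds FGF15 with β-Klotho in hepatocytes, was largely a liver gene. It averaged 57.3 ± 12.3 CPM in LIV (SD, n = 18), and LIV exceeded pgWAT (4.81 ± 5.23) in 18 of 18 mice by 4.30 (log2, SD 1.99, permutation p adjusted by BH 0.000168). STM had 1.79 and OB 0.798 CPM, and the remaining organs 0.681 CPM (psWAT) or less. The ratio of highest to lowest organ mean was 44.1 for Fgfr3, 16.1 for Fgfr2 and 10.9 for Fgfr1. No ratio is given for Fgfr4, since in CBL, its lowest organ, all 18 libraries held 3 counts or fewer and 9 held 0.

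In LIV the Fgfr4 level was 42.1, 41.7 and 51.4 CPM at 0 h, 78.2, 57.05 and 66.6 at 18 h, and 68.4, 48.5 and 52.1 at 22 h. The 18 h libraries lay above those at 0 h, as 28.2% of all LIV genes had no overlap between these groups. The 22 h libraries overlapped those at 0 h. Late against early the log2 fold change was 0.36 (SE 0.11, edgeR BH-adjusted p = 0.0349, means 61.8 and 45.3 CPM), under the fold threshold, and the joint adjusted p was 0.0614, or 0.0314 with DESeq2. Without LIV 0 h replicate 3 (0.0480), 2 h replicate 1 (0.00910), 18 h replicate 2 (0.0457) or 22 h replicate 1 (0.0446) the joint test passed. In pgWAT the level was 14.7, 8.38 and 0.178 CPM at 0 h, 0, 0.637 and 0.907 at 18 h, and 1.22, 12.3 and 5.31 at 22 h. The 22 h libraries thus reached into the 0 h range, and the late log2 fold change was -1.74 (SE 1.02, adjusted p = 0.342).

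Across the retained libraries the members' levels were related to each other through the organs. Fgfr2 and Fgfr3 had the highest Pearson r on log2(CPM + 0.5), 0.778, followed by Fgf1 and Fgfr3 (0.740), and Klb and Fgfr2 the lowest (-0.744). Fgf21 was closest to Fgfr4 (0.531) and Klb (0.467). These are descriptions, since libraries of an organ and of a mouse are not independent.

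By the same measure, over these libraries and 21601 genes, the 5 genes most like Klb were Acsl1 (r = 0.949), Ctcflos, Aco1, Acad11 and Mrap (0.939). Those most like Fgfr4 were Rdh16 (0.945), Entpd8, BC025446, Proc and Cdhr5 (0.930). For Fgfr3 they were Kcnn2 (0.943), D130043K22Rik, Hacd3, Necab1 and Rtkn (0.919), for Fgfr1 Cc2d2a (0.926), Zfp423, Gnai1, Nedd4 and Ttc8 (0.906), for Fgfr2 Magi1 (0.897), Cep170b, Slc6a9, Smad9 and Nhsl1 (0.873), and for Fgf1 Abat (0.905), Abhd3, Dmxl2, Tmem88b and Cyp2j9 (0.893). For Fgf21 they included Trim80 (0.670), Angptl8 and a gene whose symbol the table holds as a date. Within the 18 LIV libraries, over 14023 genes, Fgf21 was most like Ly9 (0.806), Vpreb3, Ntn4, AC129217.1 and Lpcat1 (0.725).

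Genes of the wider pathway were counted by list. Over all genes and organs 7.34% of tested pairs of gene and organ passed the joint test and 2.51% were called late, and the joint shares of the lists are given beside these. Of the 25 list pairs that passed the joint test in iBAT, only 1 did without the 22 h libraries, namely Mlxipl (edgeR BH-adjusted p = 0.0445). In that setting 15 of the 25 had an unadjusted p under 0.05. The 4 late calls in iBAT, of Sos1, Spred2, Mlxipl and Acot1, then had adjusted p = 0.678, 0.617, 0.299 and 0.350. With lane as a covariate 5 of 7 list pairs passed the joint test in OB and 4 of 12 in LIV. In STM 0 of 6 did. At an unadjusted p under 0.05 there were 7 in OB, 12 in LIV and 3 in STM. The 6 late calls in STM were lost too. In the joint test Dusp6, Nfe2l2 and Atf5 in STM then each had an edgeR BH-adjusted p = 0.922. In LIV 0 of 12 passed without replicate 2 (6 unadjusted), in OB 0 of 7 without replicate 3 (6 unadjusted), and in CBL 0 of 3 without replicate 1 (3 unadjusted) or 2 (2 unadjusted). In STM 0 of 6 passed without replicate 1 or 3 (5 unadjusted each). DESeq2 was not run in these settings. Of 12 FGF ligands, giving 61 tested pairs, only Fgf1 in iBAT passed the joint test (1.64%). Of 7 receptors and co-receptors (51 pairs), 6 pairs passed (11.8%), 4 of them in iBAT, and 5 were members. The other was Fgfrl1, a receptor without a kinase domain, in iBAT (log2 fold change 1.08 at 22 h, SE 0.19, edgeR BH-adjusted p = 0.000745). The median late log2 fold change of this list was -0.76 in pgWAT, where the median of all genes was 0.05, -0.64 in iBAT (all genes -0.08), 0.52 in psWAT (0.04), -0.32 in BRN (-0.07), 0.27 in LIV (0.01) and 0.17 in STM (0.01).

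Of 8 signal transduction genes (72 pairs), 7 pairs passed the joint test (9.72%, with 4 of the 7 in iBAT), and 2 fell late against early. The joint share was close to that of all genes. Both falls were of Sos1, the exchange factor that activates Ras, in BRN (-1.08, SE 0.29, edgeR BH-adjusted p = 0.0334) and in iBAT (-1.11, SE 0.22, adjusted p = 0.00183). The BRN call was lost with lane as a covariate (0.341), with every library kept (0.261), with library totals alone (0.0536), without replicate 1 (0.347) and without replicate 2 (0.272). In iBAT the phosphatase gene Ptpn11 (joint adjusted p = 0.0117) and the adaptor gene Frs2 (0.0331) passed too, and the list had a median of -0.49 there. In OB Sos1 (0.00815) and Gab1 (0.0281) passed, and in LIV Ptpn11 (0.0332). Gab1 in iBAT (0.0380) is named outside the rule, after its value was seen.

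Of 13 feedback and early target genes, 12 pairs passed the joint test, 10.6% of those tested and close to the 7.34% of all genes, and 3 of them were in iBAT. A late fall was called for 1 pair, Spred2 in iBAT (-1.06, SE 0.25, edgeR BH-adjusted p = 0.00469), an inhibitor of Ras signalling. Dusp6, the ERK phosphatase gene that FGF signalling induces, fell in iBAT at 2 h (-1.73, SE 0.32, adjusted p = 0.0257) and passed the joint test in STM (0.0356). Spry4 passed in iBAT (0.0123), Spred2, Spred1 and Dusp4 in OB (0.00241, 0.00528 and 0.0247), Spred1 and Spred2 in CBL (0.0268 and 0.0475), and Ier2 and Spred2 in LIV (0.00329 and 0.0337). Etv5 in OB (0.0412) is named outside the rule. The list's median late log2 fold change was -0.49 in BRN, -0.40 in iBAT and -0.08 in LIV.

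Of 8 regulators of Fgf21 transcription (66 pairs), 7 passed the joint test (10.6%, close to all genes), of which 4 were in iBAT, and 2 fell late. Mlxipl, which encodes the carbohydrate-responsive factor ChREBP, fell in iBAT (-1.37, SE 0.22, edgeR BH-adjusted p = 0.00107), and Pparg, the adipogenic nuclear receptor gene, fell in STM (-1.10, SE 0.33, adjusted p = 0.0302, and 0.977 with lane as a covariate). Atf4 (joint adjusted p = 0.00258) and Rora (0.0242) passed in iBAT and Nfe2l2 in STM (0.0188). In LIV Ppargc1a, a coactivator gene of the fasting response, rose at 18 h (1.38, SE 0.33, adjusted p = 0.0124). It gave no call at 22 h (0.32, adjusted p = 0.641) or late against early (0.48, adjusted p = 0.167). Mlxipl passed the joint test in LIV (0.0361). Ppara in iBAT (0.0274) is named outside the rule.

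Of 12 PPARα target genes (88 pairs), 16 passed the joint test (18.2%) and 3 were called late, all of them higher. Of the 16, 8 were in iBAT, where 29% of all genes passed. Pdk4, which spares glucose, rose in STM (1.21, edgeR BH-adjusted p = 0.00378, and 0.90 with lane as a covariate), and Acot1 in iBAT rose by 1.69 (adjusted p = 0.00614), named after its value was seen. Cpt1a, the carnitine transferase gene, fell in iBAT at 22 h (-2.28, SE 0.33, adjusted p = 0.000309), while Angptl4, a lipase inhibitor gene, rose there (2.11, SE 0.36, adjusted p = 0.000662) and in CBL at 22 h (1.36, SE 0.34, adjusted p = 0.0261), and passed in OB (joint 0.0215). Plin2 fell in iBAT at 8 h (-1.06, SE 0.20, adjusted p = 0.0215). In LIV Plin2 (-0.60) and Ehhadh (-0.59) had late adjusted p = 0.00109 and 0.0363, under the fold threshold. The list's late median was -0.10 in LIV, 0.45 in STM, 0.35 in psWAT and 0.31 in iBAT.

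In LIV Cpt1a, another PPARα target, gave no late call (-0.14, edgeR BH-adjusted p = 0.626), and it was picked after its value was seen. Of the 12 PPARα targets tested in LIV, 3 passed late without the fold threshold, all lower, beside 2098 of 14023 of all genes. Of 8 ATF4 target genes (63 pairs), 4 passed the joint test (6.35%, under the share of all genes), 1 rose late and 1 fell late. Chac1, a glutathione-degrading enzyme gene, rose in LIV (1.77 late, SE 0.28, adjusted p = 0.000443, and 0.317 with lane as a covariate) from a mean of 0.914 CPM at 0 h to 8.60 at 18 h, and Asns, asparagine synthetase, fell in STM (-1.03, SE 0.18, adjusted p = 0.00141, and 0.906 with lane as a covariate). Atf5 in STM (joint adjusted p = 0.0277) and Trib3 in iBAT (0.0335) passed too, and the list's median was 0.42 in LIV, 0.39 in iBAT, 0.32 in STM and 0.25 in BRN. Fap, the protease that cleaves FGF21, was tested in 9 organs by edgeR and called in 0 of them. DESeq2, which gave no adjusted joint p in 1 organ, called it in 0 of the others, and in 0 late against early. Its unadjusted edgeR p was under 0.05 in 1 organ in the joint test and in 2 late against early.

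Several of these calls sit in libraries and lanes already described, which limits what they show. Each group held at most 3 libraries and 2 where one was left out, no library held more than 23 counts of Fgf21, and the organ, its extraction and its lanes cannot be told apart in comparisons of levels. In LIV, OB, STM and pgWAT the early and the late libraries came from different lanes. Only the 8 h libraries in LIV, OB and STM and the 12 h ones in pgWAT were divided between these lanes, so a fit with lane as a covariate rests on them. Such a fit left 294 joint and 8 late calls over all genes in LIV and 1178 joint calls in OB. It left no late call in OB and no joint or late call in STM and pgWAT, where 828 and 938 genes had a late unadjusted p under 0.05 (1315 in OB) and 845 and 517 a joint one. DESeq2 was not run with lane. Transcripts were measured, so circulating FGF21 and the receptor proteins were not.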

How the data were processed

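RNA was sequenced from 9 organs of 18 mice as 162 stranded, paired-end mRNA libraries. The authors aligned the reads with TopHat2 2.1.1 to GRCm38.p5 and counted them per gene with HTSeq 0.9.1, as the submitters' processing notes name these tools, and deposited raw counts. Whether that counting used strand is not given in the sources used here, so reads of a gene and an antisense partner may be mixed. Groups, replicate numbers and lanes came from the labels. Mouse numbers follow fasting time and replicate number. Comparisons within mice thus take a replicate number at a given time as the same mouse in every organ.

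The filter on low counts took the CPM that 10 counts make in an organ's median library and asked for it in at least 3 retained libraries. Each organ was fitted with edgeR 4.0.16 in R 4.3.3 (TMM factors, robust quasi-likelihood, all 6 times in 1 model), with BH adjustment over all genes of a comparison. Calls used an adjusted p under 0.05 and, except in the joint test, an absolute log2 fold change over 1. DESeq2 1.42.0 was the alternative tool. Neighbouring organ levels were compared on log2(CPM + 0.5) by two-sided sign-flip permutation within mice (100000 resamples), and 1e-05 is the smallest p this can give. Exon lengths came from a later Gencode release than the one used for counting. Python 3.11.15, numpy 2.4.6, scipy 1.17.1 and pandas 2.3.3 were used, and the code was tested on simulated data.

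The 7 members and the gene lists (FGF ligands, receptors and co-receptors, signal transduction, feedback and early targets, regulators of Fgf21 transcription, PPARα targets, ATF4 targets, and Fap) were chosen with earlier results of these data known. Members were named in every organ. Other list genes called in the joint or the late comparison were counted, and up to 3 per list and organ with the smallest joint p were named. Likeness was given for the 5 genes with the highest r. A few genes these rules select are not reported here.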

Additional observations from a re-analysis of the deposited data

Results flagged for a closer look

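In libraries left out for low totals some members lay above the 0 h range of their organ and others below it. Fgf1 stood at 84.2 CPM in BRN 8 h replicate 3, against 64.2 to 75.9 CPM at 0 h, while Fgfr1 and Fgfr2 had 0 counts there, against 70.9 to 77.4 and 50.1 to 56.7 CPM, and Fgfr3 was at 99.5 CPM, under its 0 h range. In BRN 18 h replicate 1, Fgfr1 was at 121.5 CPM and Fgfr3 at 132.2 CPM, against 70.9 to 77.4 and 108.7 to 117.9 CPM, while Fgf1 and Fgfr2 had 0 counts. Fgfr4 reached 4.14 CPM in STM 12 h replicate 3, against 1.22 to 1.86 CPM. With totals of 130701 and 279848 counts, the BRN values rest on few reads.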

How the results depend on the processing

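The joint test gave 6 calls among the members, and 17 with DESeq2, 13 with no filter, 3 at an adjusted p under 0.01 and 2 in an alternative added after seeing the data, iBAT without its 22 h libraries. With the replicate number as a block (replicate block) it gave 5, losing Fgfr2 in iBAT (edgeR BH-adjusted p = 0.0533), and leaving out replicates or single libraries gave 1 to 8. Late against early fasting gave 2 calls, and 1 with the replicate block, 1 with 0 h as the only early time, 0 by edgeR with lane as a covariate, 8 with no fold threshold and 0 to 4 with libraries left out. The comparisons with 0 h gave 5 calls, and 8 with DESeq2, 2 without the iBAT 22 h libraries and 3 to 7 with libraries left out. With lane as a covariate both STM calls at 18 h were lost (edgeR BH-adjusted p = 0.638 for Fgfr2 and 0.591 for Klb), and the 3 calls that remain to be counted are those of iBAT, where lane could not be fitted. Of the 56 pairs of neighbouring organs 25 differed, and 16 to 24 did with replicates or a library left out. The relations of Fgf21 across mice gave 0 calls in every alternative run. No called value changed sign in any alternative run. Replicate numbers mark different mice at each time, so they pair no libraries across times. Deviations from group means correlated between libraries of the same number by 0.165 on average in iBAT (other pairs -0.0831) and by -0.0732 to 0.0357 in the other organs. Adjusted p in the joint test ran, with libraries left out, from 0.0196 to 0.432 for Fgfr1 in LIV, 0.00124 to 0.192 for Fgfr2 in LIV, 0.00444 to 0.277 for Fgf1, 0.00233 to 0.176 for Klb, 0.000688 to 0.0743 for Fgfr1 and 0.0182 to 0.217 for Fgfr2 in iBAT. The late log2 fold change of Fgfr2 in STM then ran from 0.64 to 1.31, and that of Klb in STM from -3.55 to -3.06, where leaving out replicate 1 or 2 removed Klb by the filter. Over all genes, DESeq2 called more than 1.5 times as many as edgeR in the joint test in BRN (1577 against 1), CBL (1772 against 477), BST (219 against 18), STM (2805 against 1067) and LIV (3585 against 2244), and late in BRN (626 against 330) and pgWAT (266 against 1), and fewer late in OB (20 against 33) and CBL (11 against 21). With lane as a covariate edgeR called 0 genes in STM (845 in the joint test and 828 late at an unadjusted p under 0.05). In BRN the 330 late calls of edgeR became 0 with lane as a covariate, with every library kept, without replicate 1 and without replicate 2 (2169, 1972, 1871 and 2298 at an unadjusted p under 0.05). Without replicate 3 edgeR called 3167 late in BRN and 3335 in the joint test, in place of 1. Leaving out a replicate number also moved the joint calls from 2244 to 0 in LIV (without replicate 2, 1826 unadjusted), 2568 to 10 in OB (without replicate 3), 1067 to 4 and 1 in STM (without replicates 1 and 3), 477 to 2 in CBL (without replicate 2) and 958 (without replicate 3), 0 to 1360 in psWAT (without replicate 3) and 4212 to 1590 in iBAT (without replicate 2). DESeq2 was not run in these settings. The lane covariate could not be fitted in iBAT, where the 22 h libraries had lanes of their own, and did not apply in CBL and BST, where all libraries shared 1 lane. With library totals alone the median late log2 fold change of all genes was -0.205 in BRN (-0.0732 with TMM), and at 22 h it was 0.106 in STM and 0.0163 in iBAT (-0.112 with TMM). The causes of these shifts were not tested. Depth also limits Fgf21, which rests on 293 counts in all, the fewest of the members.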
